A study of Homo sapiens with 24 samples.

Results

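The 10 genes followed here are transcribed in response to the ERK kinases and act back on that pathway or carry it on. They were read from 24 RNA-Seq libraries of triple-negative breast cancer (TNBC) cells treated with lapatinib, PHA-767491 or both. They were chosen by name as the phosphatase genes DUSP4, DUSP5 and DUSP6, the inhibitor genes SPRY2, SPRY4, SPRED1 and SPRED2, the transcription factor genes ETV4 and ETV5, and PHLDA1. These are 10 of the 36481 genes of the deposited table, and each was listed in all 24 libraries. In Hs578T cells, 4 of the 10 (SPRY2, SPRY4, SPRED2 and DUSP4) were higher in co-treatment than in lapatinib alone, where 18.3% of all genes tested were called higher. SPRY2 differed most, by 2.34-fold. In SKBR7 cells the differences between co-treatment and lapatinib ran from -0.84 for ETV4 to 0.67 for SPRED2 on the log2 scale, and no member passed in a fit of all 12 libraries of the line or of those 6 alone. These counts do not show that the lines differ, since a fit of all 12 Hs578T libraries also called no member. With 6 libraries of doubtful quality left out and the rest normalised anew, 5 members were called in Hs578T and 6 in SKBR7. In those fits 59.5% and 37.6% of all genes were called.

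The ERK kinases are the last step of a cascade that runs from receptors such as EGFR through RAS, RAF and MEK, and they switch on genes whose products restrain the same cascade. Among these products are phosphatases that remove phosphate from ERK, and the Sprouty and SPRED proteins, which act upstream between the receptor and RAF. ETV4 and ETV5 are ETS-family transcription factors that carry the signal on, and transcripts of this group are widely used as a readout of ERK output when EGFR or MEK is inhibited.

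Hs578T and SKBR7 are human TNBC cell lines, which lack oestrogen and progesterone receptors and HER2 amplification. Each line was treated for 6 h with vehicle (0.1% DMSO), with 3.16 µM lapatinib (an inhibitor of EGFR and HER2), with 1 µM PHA-767491 (an inhibitor of CDC7 and CDK9) or with both drugs, which is called co-treatment here. Each of the 8 groups holds 3 libraries from wells treated in parallel, so p-values rest on spread between such wells, which may be technical. For Hs578T co-treatment against lapatinib this spread is that of genes of like level, not of the gene itself. The question behind the design was how transcription responds when a CDK9 inhibitor is added to an EGFR inhibitor that these lines withstand. Levels are given as deposited, on a log2 scale that the authors had set by TMM factors and then by quantile normalisation. Read counts were not used here, so the depth of each library is unknown, and in bulk RNA fewer cells of a type and less RNA per cell cannot be told apart.

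The libraries listed between 9967 and 23320 genes, and 6 of the 24 stood apart. Hs578T DMSO replicate 1 listed 9967 genes, Hs578T DMSO replicate 2 listed 17137, Hs578T PHA-767491 replicate 1 listed 18090, SKBR7 lapatinib replicate 2 listed 18021 and SKBR7 co-treatment replicate 1 listed 16232, whereas the 18 others listed 20287 to 23282. Hs578T PHA-767491 replicate 3 listed 23320 genes, but its keratin gene KRT8 had a value of 9.71, and KRT8 was at 9.47 in Hs578T DMSO replicate 2. In the other 10 Hs578T libraries KRT8 lay between -3.52 and 5.08, and in the 12 SKBR7 libraries between 10.76 and 11.87. The summed level of 5 epithelial markers was 10.40 and 10.55 on the log2 scale in these 2 libraries, 5.47 to 7.61 in the other Hs578T libraries and 11.54 to 12.47 in SKBR7. VIM, a mesenchymal marker, was at 10.35 to 12.23 in Hs578T and 8.56 to 9.53 in SKBR7. ESR1, PGR and the leukocyte gene PTPRC were at or below 1.25 wherever they were listed, while ERBB2 was listed at 4.17 to 6.97. Because 5 of the 6 libraries belong to DMSO or to a single drug, each comparison was repeated on the other 18 libraries, which were quantile normalised anew over 12200 genes. That leaves 1 Hs578T DMSO and 1 Hs578T PHA-767491 library, each assumed to vary like the other groups. The 6 libraries that compare co-treatment with lapatinib in Hs578T are all among the 18.

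**Figure D1:**
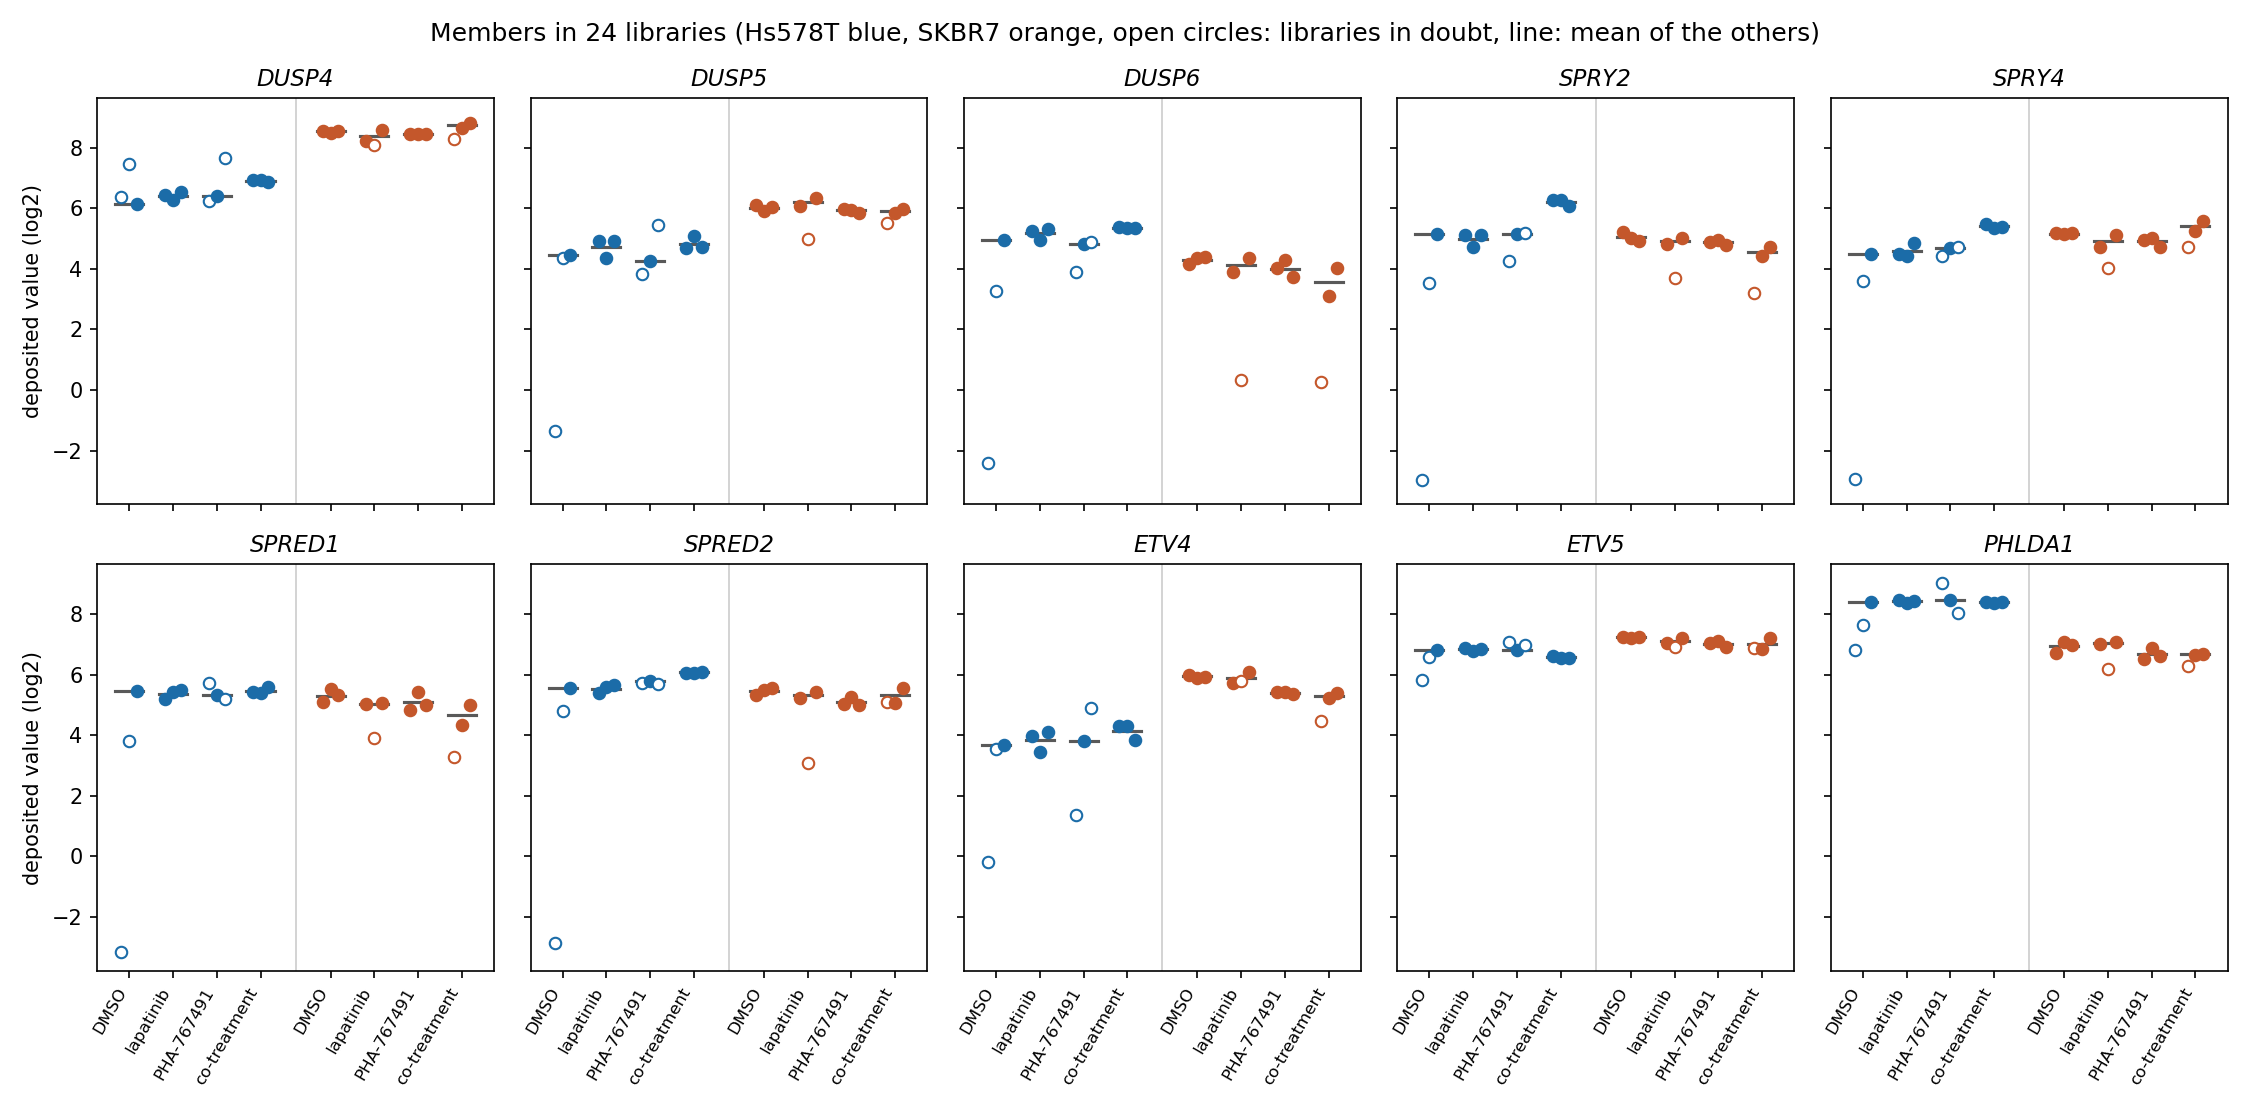
Deposited log2 value (vertical axis) of each member in the 24 libraries, by line and treatment (horizontal axis). Each circle is a library, open circles are the 6 libraries that stood apart, and lines are means of the others. SPRY2 sits at 6.08 to 6.29 in Hs578T co-treatment and at 4.73 to 5.13 under lapatinib, and the open circles of Hs578T DMSO replicate 1 fall below 0 for 7 of the 10 genes.

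Promoter sequences are shown for the 3 inhibitor genes that were higher in Hs578T co-treatment and for DUSP6, whose level did not pass the test there. Each run covers 250 bases before and 50 bases after a transcription start of RefSeq (GRCh38.p14), 5′ to 3′ on the strand of the gene. For 6 of the 10 members a window was taken from the RefSeq promoter table. Where a gene had several starts, the one nearest to the deposited 5′ end was taken. The starts used lie 38 (SPRED2), 175 (SPRY2), 510 (SPRED1), 770 (DUSP6), 2156 (PHLDA1) and 2208 (SPRY4) bases from that end. Capitals mark the ETS core CCGGAA and TGACG, the core of a cAMP response element, on either strand (as TTCCGG or CGTCA when reversed). The AP-1 site TGACTCA and the CArG box, which is bound by serum response factor, were searched too and were in none of the 6 windows.
SPRY2 (chr13:80341077-80341376, minus strand): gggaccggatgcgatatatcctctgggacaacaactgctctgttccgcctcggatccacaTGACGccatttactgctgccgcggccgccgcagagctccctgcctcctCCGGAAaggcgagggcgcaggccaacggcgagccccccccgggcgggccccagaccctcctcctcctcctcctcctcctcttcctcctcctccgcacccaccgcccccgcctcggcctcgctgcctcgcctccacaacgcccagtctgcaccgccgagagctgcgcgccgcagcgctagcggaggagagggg
SPRY4 (chr5:142324198-142324497, minus strand): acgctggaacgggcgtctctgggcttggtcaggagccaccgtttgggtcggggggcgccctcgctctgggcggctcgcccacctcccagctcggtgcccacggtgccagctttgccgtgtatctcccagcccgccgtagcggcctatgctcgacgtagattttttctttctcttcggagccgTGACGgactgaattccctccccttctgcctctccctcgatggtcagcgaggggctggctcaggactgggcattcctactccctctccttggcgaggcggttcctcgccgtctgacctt
SPRED2 (chr2:65432550-65432849, minus strand): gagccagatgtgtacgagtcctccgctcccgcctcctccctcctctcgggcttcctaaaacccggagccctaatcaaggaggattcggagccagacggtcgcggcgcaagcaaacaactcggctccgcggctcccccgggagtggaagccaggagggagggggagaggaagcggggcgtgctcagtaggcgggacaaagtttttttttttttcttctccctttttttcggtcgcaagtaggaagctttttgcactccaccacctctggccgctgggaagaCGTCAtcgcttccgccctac
DUSP6 (chr12:89352452-89352751, minus strand): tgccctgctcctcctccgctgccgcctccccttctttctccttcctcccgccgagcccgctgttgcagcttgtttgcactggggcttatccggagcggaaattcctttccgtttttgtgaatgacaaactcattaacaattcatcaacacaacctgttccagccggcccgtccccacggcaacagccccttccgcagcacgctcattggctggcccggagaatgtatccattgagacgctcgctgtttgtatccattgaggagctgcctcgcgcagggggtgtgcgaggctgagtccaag
The SPRY2 window holds 1 ETS core and 1 TGACG, those of SPRY4 and SPRED2 hold 1 TGACG each, and that of DUSP6 holds none of the 4 motifs. Of 35116 promoter windows of the same length, 24.6% hold TGACG, 17.2% the ETS core, 4.95% the AP-1 site and 1.29% a CArG box. The SPRED1 window holds none of the motifs and the PHLDA1 window 1 ETS core. These 6 windows have a G+C content of 58.3% (DUSP6) to 76.3% (SPRED1), against a median of 58.7% over all windows. No entry was matched for DUSP4, DUSP5, ETV4 and ETV5.

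Among the phosphatases, DUSP4 acts on ERK in the nucleus. In the deposited table it lies on chromosome 8 at 29333064 to 29350668 (GRCh38). Its Hs578T values were 6.94, 6.92 and 6.89 in co-treatment against 6.43, 6.27 and 6.55 under lapatinib. The 3 co-treated libraries were all higher than the 3 lapatinib libraries, by 0.50 on the log2 scale (1.42-fold, SE 0.12, limma adjusted p = 1.11e-04). Hs578T DMSO gave 6.38, 7.47 and 6.15, and PHA-767491 gave 6.25, 6.42 and 7.66. Both values above 7 come from the 2 Hs578T libraries with high KRT8, and on the 18 libraries normalised anew co-treatment exceeded the remaining DMSO library by 0.73 (adjusted p in limma 2.09e-04) and the remaining PHA-767491 library by 0.51 (adjusted p in limma 0.00409). In SKBR7, DUSP4 lay between 8.10 and 8.84 in all 12 libraries. Its co-treatment values of 8.29, 8.64 and 8.84 overlapped those under lapatinib, 8.21, 8.10 and 8.60 (difference 0.28, limma adjusted p = 0.517). On the 18 libraries the difference was 0.33 and passed (limma adjusted p = 0.00766).

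DUSP5, a nuclear phosphatase selective for ERK (chromosome 10, 110497838 to 110511544), did not separate co-treatment from lapatinib in Hs578T. Its values were 4.68, 5.09 and 4.71 in co-treatment and 4.92, 4.37 and 4.92 under lapatinib (difference 0.09, 95% interval -0.26 to 0.44, limma adjusted p = 0.764). Hs578T DMSO replicate 1 had -1.37, where the other 2 DMSO libraries had 4.36 and 4.45. All of these were below the co-treated libraries, as for 40.7% of genes. The deposited ranges of co-treatment and PHA-767491 overlapped, and on the 18 libraries co-treatment exceeded the remaining PHA-767491 library by 0.62. The SKBR7 values of DUSP5 were 5.51, 5.86 and 5.98 in co-treatment and 6.06, 4.99 and 6.33 under lapatinib. These ranges overlapped with all libraries (difference -0.01), and on the 18 libraries the difference was -0.28 (limma adjusted p = 0.0353).

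DUSP6, the cytoplasmic phosphatase for ERK (chromosome 12, 89347232 to 89353271), had Hs578T values of 5.39, 5.35 and 5.35 in co-treatment. Under lapatinib they were 5.27, 4.95 and 5.32. All 3 co-treated libraries were above all 3 lapatinib libraries, but the difference of 0.18 did not pass (95% interval -0.12 to 0.49, limma adjusted p = 0.42). In SKBR7 DUSP6 was 4.16, 4.36 and 4.38 in DMSO, 4.02, 4.29 and 3.73 under PHA-767491, 3.89, 0.32 and 4.37 under lapatinib and 0.27, 3.09 and 4.02 in co-treatment. The values of 0.32 and 0.27 belong to lapatinib replicate 2 and co-treatment replicate 1, which list fewest genes in that line. With them, the difference between co-treatment and DMSO was -1.84 with an interval of -3.71 to 0.03 (limma adjusted p = 0.301). Without them the deposited means were 3.56 in co-treatment and 4.30 in DMSO. After normalisation anew of the 18 libraries the difference was -0.52 (95% interval -0.81 to -0.22, limma adjusted p = 0.0078), and against lapatinib it was -0.54 (limma adjusted p = 0.0124).

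SPRY2, a Sprouty inhibitor of receptor signalling to RAS (chromosome 13, 80335976 to 80340951), showed the largest difference of the 10 genes in Hs578T co-treatment. Its values were 6.27, 6.29 and 6.08 in co-treatment and 5.10, 4.73 and 5.13 under lapatinib. The gap between the groups was wider than the range within either, and the difference of 1.23 was 2.34-fold (SE 0.14, 95% interval 0.94 to 1.51, limma adjusted p = 1.16e-15). It ranked 3501st by size of the 21814 genes tested. Leaving out any of the 6 libraries gave 1.10 to 1.30, and each of those fits called it. PHA-767491 alone gave 4.27, 5.16 and 5.20, all below co-treatment. DMSO gave -2.96, 3.55 and 5.17, of which the first 2 stand in libraries with few genes. On the 18 libraries the co-treatment difference was 1.01 against DMSO, 1.16 against lapatinib and 1.08 against PHA-767491, and each passed (limma adjusted p = 1.19e-04, 7.7e-07 and 1.79e-04). These 3 comparisons share the co-treated libraries. In SKBR7, SPRY2 stood at 5.23, 5.02 and 4.94 in DMSO and at 3.19, 4.41 and 4.73 in co-treatment. All 3 co-treated libraries were below all DMSO libraries, with a difference of -0.95 that did not pass (limma adjusted p = 0.258). The same comparison on the 18 libraries gave -0.37 (limma adjusted p = 0.0198), while that with lapatinib gave -0.34 and did not pass (limma adjusted p = 0.0502).

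SPRY4, a related Sprouty inhibitor (chromosome 5, 142310427 to 142326455), had Hs578T values of 5.48, 5.35 and 5.39 in co-treatment and 4.49, 4.42 and 4.85 under lapatinib. The groups did not overlap, and the difference was 0.82 (1.76-fold, SE 0.17, limma adjusted p = 1.08e-05). Hs578T PHA-767491 libraries had 4.41, 4.68 and 4.71, again below every co-treated library. In SKBR7 SPRY4 was 4.72, 5.27 and 5.57 in co-treatment and 4.74, 4.04 and 5.13 under lapatinib, and the difference of 0.55 did not pass (limma adjusted p = 0.567). With 18 libraries it was 0.47 against lapatinib, 0.35 against DMSO and 0.49 against PHA-767491, and all of these passed (limma adjusted p = 0.00281, 0.00795 and 0.00126).

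SPRED1 and SPRED2 encode membrane proteins that bind neurofibromin and hold back RAS. Of this pair, SPRED2 (chromosome 2, 65310851 to 65432637) was higher in Hs578T co-treatment, with 6.07, 6.07 and 6.11 against 5.40, 5.6 and 5.65 under lapatinib (difference 0.54, 1.45-fold, SE 0.14, limma adjusted p = 5.78e-04). The groups did not overlap. Centring every library on its own median gave 0.39, which just missed the threshold (limma adjusted p = 0.0542). SPRED1 (chromosome 15, 38252326 to 38357249) had 5.42, 5.41 and 5.59 in co-treatment and 5.22, 5.43 and 5.49 under lapatinib, which overlapped (difference 0.09, 95% interval -0.20 to 0.39, limma adjusted p = 0.702). In SKBR7, SPRED1 was lower in co-treatment than in DMSO, at 3.27, 4.34 and 4.99 against 5.10, 5.52 and 5.33, in every library. That difference of -1.11 did not pass (limma adjusted p = 0.186) and was -0.53 on the 18 libraries (limma adjusted p = 0.016), where the difference from lapatinib was -0.35 and did not pass (limma adjusted p = 0.124). SPRED2 in SKBR7 had 5.11, 5.06 and 5.57 in co-treatment and 5.23, 3.08 and 5.43 under lapatinib. Its difference of 0.67 with all libraries (limma adjusted p = 0.613) was -0.01 on the 18 libraries normalised anew.

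ETV4 (chromosome 17, 43527844 to 43579620) separated the SKBR7 libraries by PHA-767491. It was 6.01, 5.91 and 5.94 in DMSO, 5.73, 5.78 and 6.09 under lapatinib, 5.44, 5.44 and 5.36 under PHA-767491 and 4.47, 5.22 and 5.39 in co-treatment. The 6 libraries that received PHA-767491 were all lower than the 6 that did not. The share of genes that do so over all 12 libraries was not counted. By pairs of groups, all 3 libraries were lower for 23.9% of genes under PHA-767491 against DMSO. The share was 33.1% for co-treatment against DMSO and 6.63% for co-treatment against lapatinib. Co-treatment differed from lapatinib by -0.84 (95% interval -1.42 to -0.25, limma adjusted p = 0.204) and from DMSO by -0.92 (limma adjusted p = 0.0998), neither of which passed. PHA-767491 alone differed from DMSO by -0.54, which did not pass in the fit of all 12 libraries (limma adjusted p = 1). It did pass in the fit of those 6 libraries alone (limma adjusted p = 0.0109) and, at -0.46, on the 18 libraries (limma adjusted p = 0.00985). In these fits 1.96% and 3.34% of genes were called. Co-treatment on the 18 libraries differed from lapatinib by -0.60 (limma adjusted p = 3.19e-04) and from DMSO by -0.57 (limma adjusted p = 2.05e-04). It could not be separated from PHA-767491 alone, with a difference of -0.11 and an interval of -0.30 to 0.08. In Hs578T, ETV4 was 4.31, 4.30 and 3.86 in co-treatment and 3.97, 3.46 and 4.11 under lapatinib, with overlap (difference 0.31, limma adjusted p = 0.328). With library weights this difference was 0.34 and passed (limma adjusted p = 0.0398), where 48.2% of genes did. Hs578T PHA-767491 replicates 1 and 3 had 1.37 and 4.90, on either side of all other drug-treated Hs578T libraries.

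ETV5 (chromosome 3, 186046308 to 186110318) had Hs578T values of 6.63, 6.56 and 6.57 in co-treatment and 6.88, 6.79 and 6.87 under lapatinib. The co-treated libraries were all lower, with a difference of -0.26 that missed the threshold (limma adjusted p = 0.0753). The difference was -0.30 after normalisation anew and then passed (limma adjusted p = 0.00438). It also passed with each library centred (-0.40, limma adjusted p = 0.0361), with library weights (limma adjusted p = 0.00276) and without lapatinib replicate 2 (-0.29, limma adjusted p = 0.0395). It did not pass with the replicate number as a block, without a variance trend or with robust eBayes (limma adjusted p = 0.203, 0.224 and 0.0806). Nor did it pass with no filter, with only genes listed in every library or with all 12 libraries (limma adjusted p = 0.0809, 0.0507 and 0.992). SKBR7 values of ETV5 lay between 6.86 and 7.26 in all 12 libraries.

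PHLDA1, which encodes a pleckstrin homology-like domain protein (chromosome 12, 76025447 to 76033932), had Hs578T values of 8.40, 8.38 and 8.41 in co-treatment and 8.48, 8.38 and 8.45 under lapatinib. The interval of this difference, -0.22 to 0.14, is the narrowest of the 10 genes in that comparison. In SKBR7 it was 6.72, 7.10 and 6.99 in DMSO and 6.30, 6.65 and 6.69 in co-treatment, lower in every co-treated library (difference -0.39, limma adjusted p = 0.417). Against lapatinib on the 18 libraries the difference was -0.37 (limma adjusted p = 0.0237).

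Over the whole set, 4 members rose in Hs578T co-treatment against lapatinib and none fell, while of 21814 genes tested 3999 (18.3%) rose and 2405 fell. The median difference was 0.25 over the members and 0.18 over all genes. The 3 co-treated libraries lay above the 3 lapatinib libraries for 5 members (the 4 above and DUSP6), as for 29.7% of the 16561 genes listed in all 6. The calls depended on how the spread was modelled. In this fit limma took the spread of each gene wholly from the trend over genes of like level. Without a variance trend SPRY2 alone passed (limma adjusted p = 0.0326), and with all 12 Hs578T libraries in the fit none did (limma adjusted p of 0.992 or more for the 4 genes), as that fit takes its spread also from the DMSO and PHA-767491 libraries. The summed epithelial markers were 6.73 to 7.0 in co-treatment and 7.47 to 7.61 under lapatinib, KRT8 was at 4.78 to 5.08 and 3.8 to 4.24, and CDH1 was at -2.94 to -0.01 over both. The summed mesenchymal markers were 13.85 to 13.96 in co-treatment and 13.59 to 13.76 under lapatinib, and the summed hormone receptor and ERBB2 genes were 5.27 to 5.61 and 5.72 to 5.92. All of these sums separated the groups, and their part in these results was not tested.

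**Figure D2:**
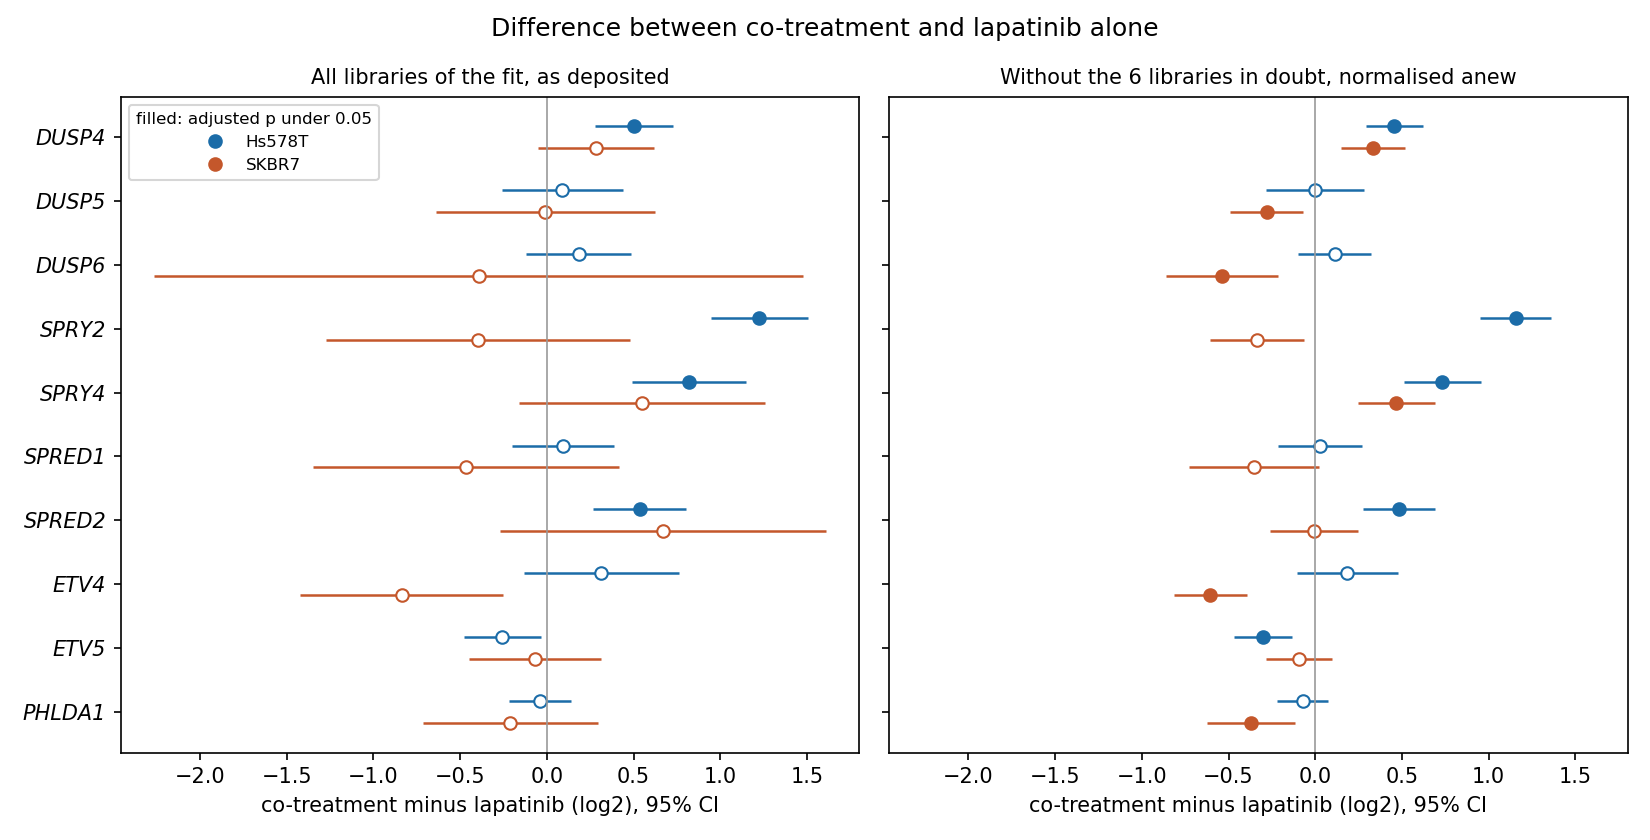
Co-treatment minus lapatinib for each member on the log2 scale (horizontal axis) with 95% confidence intervals, Hs578T in blue and SKBR7 in orange. Filled circles have a limma adjusted p under 0.05. At left (deposited values, with 6 libraries in the Hs578T fit and 12 in the SKBR7 fit) 4 Hs578T circles and no SKBR7 circle are filled. There 29.4% and 0.734% of all genes were called, and a fit of 12 Hs578T libraries would fill no circle. At right (18 libraries normalised anew) 5 and 6 circles are filled, where 59.5% and 37.6% of all genes were called.

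With all 12 Hs578T libraries in the limma fit no member passed in the other comparisons of that line. Of 21166 genes tested for lapatinib against DMSO, 21314 for PHA-767491, 21228 for co-treatment against DMSO, 23003 for co-treatment against PHA-767491 and 20132 for departure from additivity, 0.0% were called in each. Departure from additivity is the co-treatment effect minus the sum of the single-drug effects. At an unadjusted p under 0.05 there were 4, 3, 5, 0 and 0 members in these comparisons and 2047, 1677, 4632, 1233 and 794 genes. SPRY2 had the largest of the differences against DMSO, 4.30 in co-treatment, which was 1.86 without DMSO replicate 1 (limma adjusted p = 0.036). In the fit of the 18 libraries normalised anew, lapatinib differed from the remaining DMSO library by -0.15 to 0.33 over the 10 genes and PHA-767491 by -0.30 to 0.22, and no member passed (0.0% and 0.254% of 12200 genes called). At an unadjusted p under 0.05 there were 1 and 0 members and 424 and 1330 genes. Co-treatment then differed for 5 members against DMSO (DUSP4, DUSP6, SPRY2, SPRY4 and SPRED2, all higher), where 46.2% of genes were called. Against PHA-767491 there were also 5 (DUSP4, DUSP5, DUSP6, SPRY2 and SPRY4, all higher), where 31.6% were called. With the deposited values, all 3 co-treated libraries were above all 3 PHA-767491 libraries for 4 members (DUSP6, SPRY2, SPRY4 and SPRED2), as for 24.2% of genes. In the comparison with lapatinib on the 18 libraries, 5 members passed, 4 higher and ETV5 lower, where 59.5% of genes did. For departure from additivity SPRY2 alone passed, at 1.23 (95% interval 0.82 to 1.65, limma adjusted p = 0.0038), against 8.58% of genes.

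With all 12 SKBR7 libraries in the limma fit none of the 10 was called in any comparison. The share of genes called was 1.51% of 22521 for co-treatment against DMSO, 0.734% of 21932 against lapatinib, 0.431% of 22253 against PHA-767491, 0.0% for either drug alone against DMSO and 0.0095% for departure from additivity. Members with an unadjusted p under 0.05 numbered 3 against DMSO (SPRY2, SPRED1 and ETV4), 1 against lapatinib (ETV4) and 1 against PHA-767491 (SPRED1), beside 3830, 2515 and 2316 genes. For lapatinib alone, PHA-767491 alone and departure from additivity there were 0 members and 525, 484 and 751 genes. All 3 co-treated libraries were below all 3 DMSO libraries for 6 members (DUSP6, SPRY2, SPRED1, ETV4, ETV5 and PHLDA1), as for 33.1% of genes. The same was true under PHA-767491 for 5 members (DUSP4, SPRY4, SPRED2, ETV4 and ETV5) and 23.9% of genes, and under lapatinib for 3 (SPRY4, SPRED1 and ETV5) and 8.08%. Co-treatment on the 18 libraries normalised anew gave 6 members against DMSO (42.5% of genes called), 6 against lapatinib (37.6%) and 5 against PHA-767491 (38.5%). In each of these DUSP4 and SPRY4 were higher. The members called lower were DUSP6, SPRY2, SPRED1 and ETV4 against DMSO, DUSP5, DUSP6, ETV4 and PHLDA1 against lapatinib, and DUSP6, SPRY2 and SPRED1 against PHA-767491. DUSP4 and SPRY4 also exceeded the sum of the single-drug effects, by 0.37 and 0.61 (limma adjusted p = 0.0303 and 0.0066), where 21.1% of genes passed. Lapatinib alone called no member (0.082% of genes), 1 member and 627 genes had an unadjusted p under 0.05, and its differences from DMSO ran from -0.17 to 0.26. PHA-767491 alone called ETV4 (3.34% of genes), and all 10 differences were negative, from -0.46 to -0.01.

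**Figure D3:**
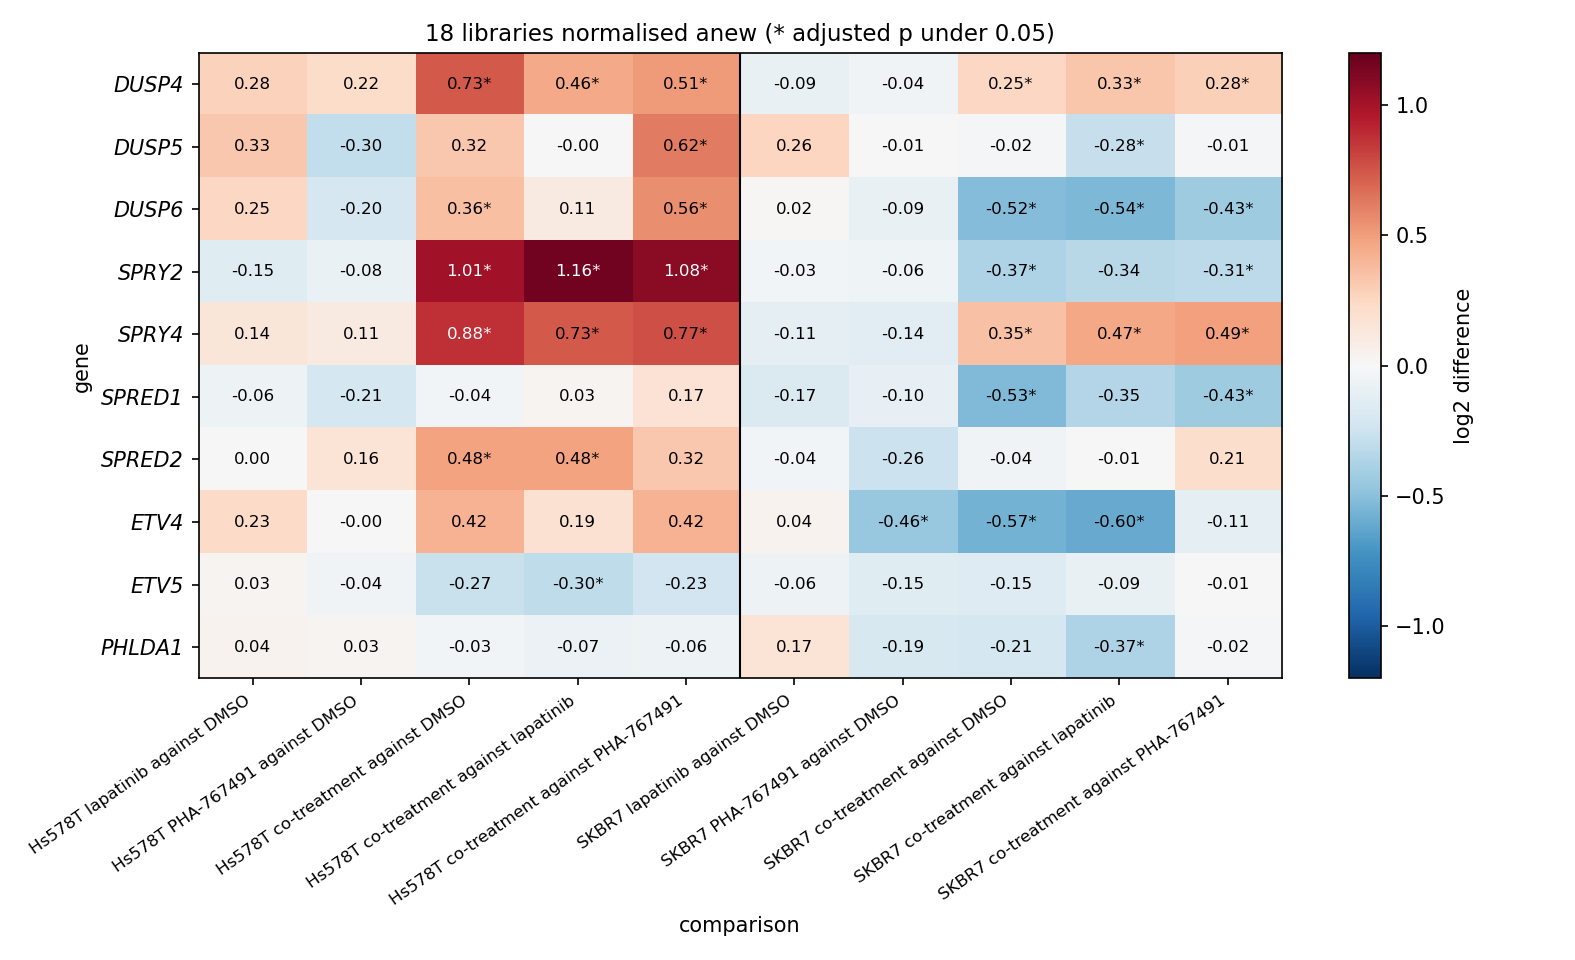
Log2 differences of the members (rows) in 10 comparisons (columns), from the 18 libraries normalised anew. Asterisks mark a limma adjusted p under 0.05. The co-treatment columns of Hs578T hold positive called values up to 1.16 and 1 negative called value, ETV5 at -0.30, and those of SKBR7 hold called values of both signs from -0.60 to 0.49.

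The effect of adding PHA-767491 to lapatinib was compared between the lines as the Hs578T difference minus the SKBR7 difference. In the fit of all 24 libraries no member passed (0.0% of 19168 genes), no member had an unadjusted p under 0.05 while 364 genes did, and the interval for SPRY2 ran from -1.62 to 4.86. With the 18 libraries 4 members differed, where 20.7% of genes did. SPRY2 differed by 1.49 (95% interval 1.16 to 1.82, limma adjusted p = 7.24e-06), ETV4 by 0.79 (limma adjusted p = 0.00173), DUSP6 by 0.65 (limma adjusted p = 0.0145) and SPRED2 by 0.49 (limma adjusted p = 0.0299). For DUSP4 and SPRY4, which were higher in both lines, the difference between lines was 0.12 (interval -0.10 to 0.35) and 0.27 (interval -0.02 to 0.55). The co-treatment effect against DMSO differed between lines for no member with all libraries (0.0268% of genes) and for 6 on the 18 libraries (16.8%). The lapatinib effect differed for none in either fit (0.0264% and 0.0738% of genes). At an unadjusted p under 0.05 with all libraries, 7 members differed in the co-treatment effect against DMSO and 6 in the lapatinib effect, beside 5605 and 3278 genes, and both comparisons hold Hs578T DMSO replicate 1. On the 18 libraries 1 member and 534 genes had such a p in the lapatinib effect.

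The lines also differed in the level of single members under the same drugs. DUSP4 was lower in Hs578T than in SKBR7, with differences of -1.89 under lapatinib and -1.67 in co-treatment (limma adjusted p = 2.66e-04 and 8.26e-04). PHLDA1 was higher by 1.68 and 1.85 (limma adjusted p = 9.69e-04 and 3.06e-04). These were the 2 members called with all libraries, where 12.7% and 16.6% of genes were called. With the 18 libraries 7 members differed under lapatinib and 9 in co-treatment (69.5% and 73.4% of genes). DUSP4, DUSP5, ETV4 and ETV5 were lower in Hs578T and DUSP6 and PHLDA1 higher under both drug conditions, SPRY4 was lower under lapatinib, and SPRY2, SPRED1 and SPRED2 were higher in co-treatment. Under lapatinib the differences were -2.0 for ETV4, -1.42 for DUSP5 and 1.04 for DUSP6. For SPRY2 no difference was detected under lapatinib (0.10, 95% interval -0.13 to 0.33), and it was higher in Hs578T by 1.59 in co-treatment (limma adjusted p = 2.2e-10).

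Levels of different genes were compared per kb of mRNA, by subtracting the log2 of the canonical GENCODE mRNA length from the mean log2 value of the libraries that did not stand apart. In Hs578T PHLDA1 was highest, at 5.83 to 5.90 in the 4 groups, followed by ETV5 at 4.56 to 4.81, while SPRY4, at 2.19 in DMSO, was lowest there. SPRY2 was at 3.8 under lapatinib and at 5.02 in co-treatment, where it was above ETV5. In SKBR7 DUSP4 was highest, at 5.93 to 6.26, and ETV5 next, at 5.00 to 5.21. DUSP6 and SPRED1 were lowest, at 1.70 and 1.80 in co-treatment, and this pair did not differ beyond its spread, since the 2 DUSP6 libraries alone were 3.09 and 4.02 before the length was taken off.

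**Figure D4:**
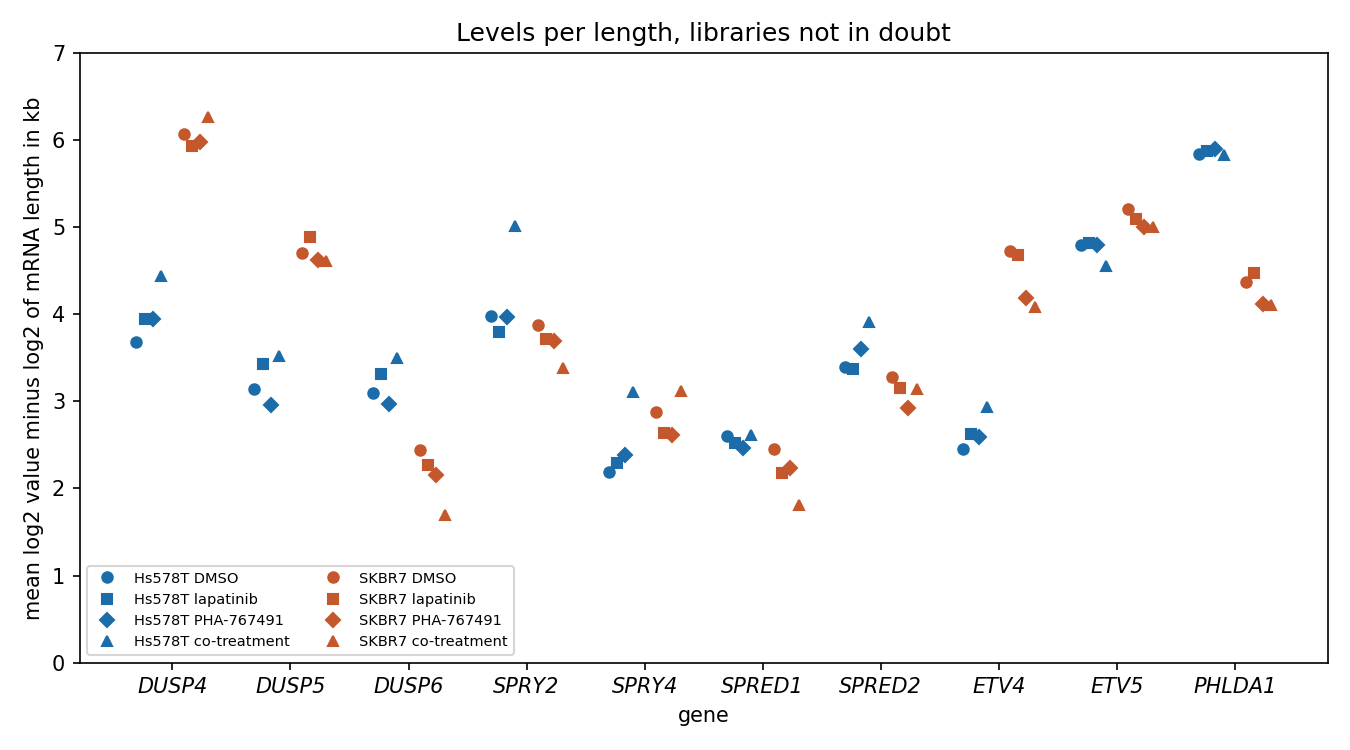
Mean log2 value minus the log2 of mRNA length in kb (vertical axis) for each member (horizontal axis), Hs578T in blue and SKBR7 in orange, with symbols for the 4 treatments. Libraries that stood apart were left out, so Hs578T DMSO and PHA-767491 are 1 library each. DUSP4 and ETV4 are higher in SKBR7 and PHLDA1 is higher in Hs578T in all 4 treatments.

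Other genes of the pathway were counted in lists. In Hs578T co-treatment against lapatinib 29.4% of all genes tested were called, and 18.3% of all genes tested were called higher. For Hs578T co-treatment against lapatinib, none of 7 other MAP kinase phosphatases and none of the 3 other Sprouty and SPRED genes passed (median differences 0.05 and 0.20, all genes 0.18). Of 7 other ETS factors 2 rose and 1 fell. ELK3 rose by 1.09 and ETS1 by 0.85, and ELK4, a partner of serum response factor, fell by 1.03 (limma adjusted p = 1.19e-15, 5.75e-13 and 1.08e-05). Of 9 other ERK output transcripts 3 rose and 2 fell. The AP-1 subunit gene FOSL1 rose by 0.81, the cytokine gene LIF by 0.67 and MYC by 0.58, and the immediate early gene IER3 fell by 0.92 (limma adjusted p = 7.67e-16, 0.00372, 3.91e-05 and 2.75e-10). Of 19 genes of the cascade itself 2 rose and 5 fell. The 4 with the largest differences fell, namely the adaptor gene GAB1 by 1.38, the RAS GTPase activator RASA1 by 1.25, and the RAS exchange factors SOS2 by 0.72 and SOS1 by 0.63 (limma adjusted p = 0.0273, 8.53e-14, 0.00137 and 9.22e-04). In SKBR7 co-treatment against lapatinib FOSL1 alone passed among all these lists, with a rise of 1.16 (limma adjusted p = 0.00874), where 0.734% of all genes passed.

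The members did not form a single pattern. Over the 18 libraries, with the mean of each line taken off, Pearson's r between pairs of members ran from -0.36 (DUSP4 and ETV5) to 0.95 (DUSP4 and SPRY4). SPRY4 and SPRED2 had an r of 0.81 and DUSP6 and SPRED1 an r of 0.78. These are descriptions, since the points share treatments and library composition. Among 14104 genes listed in all 18 libraries, those most like DUSP6 by the same measure were GABPB2 (0.93), PLEKHH2 (0.93), CAMK1D (0.92), CHIC2 (0.92) and TBC1D19 (0.91). Those most like the mean of the members were HYAL3 (0.97), GORAB (0.95), LHFP (0.95), TBC1D7 (0.94) and TCTA (0.94).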

How the data were processed

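RNA of 24 libraries (2 cell lines, 4 treatments, 3 wells each) was sequenced as paired reads of 100 bases. The deposited table holds log2 levels per gene and library, for which the authors applied TMM factors and then quantile normalisation. The submitters' processing notes name featureCounts 1.4.6 for counting, edgeR for scaling, the build GRCh38 and Ensembl 84. The labels name HiSat2 as aligner and the methods name STAR, and which made these values is not given in the sources used here. Quantile normalisation gives every library the same distribution, so a shift of all genes cannot be seen, and a library that lists few genes has other ranks. Of 36517 lines, 36 with repeated identifiers were left out.

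The test was that of limma 3.58.1 under R 4.3.3, two-sided, from lmFit with a mean per group and eBayes with a variance trend, with Benjamini-Hochberg adjustment over all genes tested and a threshold of 0.05. Genes listed in at least 3 libraries of the fit and in every group compared were tested, and no value was filled in. The fit held the 12 libraries of a line, the 6 libraries of both groups for Hs578T co-treatment against lapatinib, and all 24 libraries between lines. The 6 libraries were used for that comparison alone. In earlier simulations the fit of all 12 Hs578T libraries had almost no power to detect a change. The matching SKBR7 comparison kept 12 libraries. Code was tested on simulated data. The rule for named genes was all members, and up to 4 passing genes of the largest change per list. Members and lists were chosen with earlier results of these data known. Figures were made with Python 3.11.15 and matplotlib 3.10.9, and mRNA lengths come from GENCODE 44. Alternatives were the filter, library centring, the variance model, library weights, the replicate number as a block, the libraries in the fit and leaving out each library.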

Additional observations from a re-analysis of the deposited data

Results flagged for a closer look

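The co-treatment effect differed between the lines for several members once the 6 libraries that stood apart were left out and the others were normalised anew. Against lapatinib, the Hs578T effect minus the SKBR7 effect on the log2 scale was 1.49 for SPRY2, 0.79 for ETV4, 0.65 for DUSP6 and 0.49 for SPRED2. In that comparison 20.7% of all genes passed. Against DMSO it was 1.37 for SPRY2, 0.98 for ETV4, 0.88 for DUSP6, 0.53 for SPRED2, 0.52 for SPRY4 and 0.49 for DUSP4. Each of these passed a limma test of the difference itself over 12200 genes, and none did with all 24 libraries. The second set rests on 1 Hs578T DMSO library, and its share of all genes is given with the line comparison above. Groups of 3 libraries were not tested for outliers.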

How the results depend on the processing

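The number of members called stayed within 1.5 times for all 17 comparisons with no filter on listed genes, with robust eBayes, with each library centred on its median and with the replicate number as a block. Most of these comparisons called no member in the main fit, and staying at none counted as unchanged. Centring kept 4 members in Hs578T co-treatment against lapatinib, but SPRED2 was lost (limma adjusted p = 0.0542) and ETV5, which was lower, was gained (limma adjusted p = 0.0361). The replicate block left the 4 members of Hs578T co-treatment against lapatinib called. Correlations of deviations between libraries with the same number had medians of -0.02 in Hs578T and 0.01 in SKBR7. They ran from -0.46 to 0.38 and from -0.48 to 0.58. Libraries with different numbers had medians of 0.01 and -0.02. Libraries that stood apart entered these deviations, so pairing by number is not excluded. Library weights could be estimated only for Hs578T co-treatment against lapatinib.

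In Hs578T co-treatment against lapatinib, 4 members were called (29.4% of all genes called). The count was 1 without a variance trend (6.83%), 0 with all 12 libraries (0.0%), 6 with library weights (48.2%) and 4 to 5 without each library in turn (22.2% to 32.3%). On the 18 libraries normalised anew, for which the report gives the shares of all genes, the counts went from 0 to 5 against DMSO, to 5 against PHA-767491 and to 1 for departure from additivity in Hs578T, and from 0 to 6 against DMSO, 6 against lapatinib, 5 against PHA-767491, 1 for PHA-767491 against DMSO and 2 for departure from additivity in SKBR7. Between lines they went from 0 to 6 (co-treatment against DMSO) and 4 (against lapatinib), and from 2 to 7 and 9 for the levels under lapatinib and co-treatment. With only the libraries of both groups, these levels gave 5 and 7 (22.1% and 31.0% of genes), SKBR7 PHA-767491 against DMSO gave 1 (1.96%) and SKBR7 co-treatment against lapatinib still 0 (0.442%). With only genes listed in every library, SKBR7 co-treatment against DMSO gave 1 (5.1%). On the 18 libraries SPRY2 turned from -1.73 to 1.23 in Hs578T departure from additivity and SPRED2 from -0.13 to 0.49 in the line difference against lapatinib, neither called in the fit of all libraries, and the cause was not tested.

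Without each library in turn the counts ran from 0 to 6 for Hs578T lapatinib and PHA-767491 against DMSO, 0 to 7 for co-treatment against DMSO, 0 to 7 and 0 to 8 for the line differences in lapatinib and co-treatment against DMSO, 0 to 2 for SKBR7 co-treatment against DMSO, and 2 to 5 and 2 to 6 for the levels under lapatinib and co-treatment. The high ends of the DMSO comparisons in Hs578T and between lines come from leaving out Hs578T DMSO replicate 3, which keeps both DMSO libraries with few genes. There 33.0%, 22.0% and 39.7% of all genes were called for lapatinib, PHA-767491 and co-treatment against DMSO, and 42.2% and 50.7% for the line differences. Those of the levels come from leaving out Hs578T DMSO replicate 1 (21.5% and 27.2% of genes), without which Hs578T co-treatment against DMSO called SPRY2 (1.86, limma adjusted p = 0.036, 2.44% of genes). In SKBR7, ETV4 and SPRED1 passed against DMSO without co-treatment replicate 3 (8.0% of genes) and ETV4 without lapatinib replicate 2 (6.94%). The absence of read counts leaves the precision of single values unknown.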
